A study of Mus musculus with 2 samples.

Results

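Dividing CD8 T cells were the CD8 T cells of an MC38 tumour whose transcriptome carried at least 3 unique molecular identifiers (UMIs, each standing for 1 captured transcript) of Mki67 and Top2a together. A barcode counted as a CD8 T cell if it held at least 2 UMIs of Cd3d, Cd3e and Cd3g, at least 2 UMIs of Cd8a and Cd8b1, fewer than 5 UMIs of the myeloid gene Lyz2 and none of the tumour gene Hmga2. By this rule 115 cells were dividing CD8 T cells, out of 488 CD8 T cells, 14154 barcodes kept and 14615 barcodes deposited. They were set against the 255 CD8 T cells without a UMI of either gene, called 0-UMI CD8 T cells here. The members were chosen by their UMIs of Mki67, Top2a and the gate genes in these same libraries, so every contrast between dividing and 0-UMI cells is a description and carries no test.

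The tumours grew in C57BL/6 mice from MC38, a mouse colon carcinoma line, so that tumour and host are the same species although the labels speak of a xenograft. The RSPO3-OE group had the genotype MC38-RSPO3-OE, in which the tumour cells overexpress RSPO3, an R-spondin that cells secrete and that amplifies Wnt signals. The Ctrl group had the genotype MC38-Ctrl. Whole digested tumour was loaded on a droplet 3′ platform, and the labels name no sort. Each group had 1 library, and the sources used here do not give the number, age or sex of the mice, the tumour site or the day of harvest.

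CD8 T cells recognise peptides on MHC class I through a T cell receptor that signals by way of the CD3 chains, and they kill with perforin and granzymes. After activation they pass through many rapid divisions, copying DNA in S phase and, after G2, condensing and separating chromosomes in mitosis. Mki67 encodes the Ki-67 protein that coats mitotic chromosomes and Top2a encodes the topoisomerase that untangles replicated DNA. Their transcripts build up from S phase to mitosis and decay after it, and in tumours dividing CD8 T cells are commonly found among the activated and exhausted cells.

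With 1 library per group no difference between the libraries has a replicate check, and intervals are exact 95% counting intervals that cover counting error only. The 2 libraries held 7164 and 6990 kept barcodes, with 155377094 UMIs in RSPO3-OE and 143179718 in Ctrl. The labels give a target of about 6000 cells per library, set beside the 7164 and 6990 barcodes kept here. The libraries shared 7 kept barcodes, 1 of which was a CD8 T cell. Levels are given as CPM, the UMIs of a gene summed over the cells of a library and state, as a share of all UMIs of those cells scaled to 1000000. A ratio was calculated for genes with at least 50 UMIs over both sides, and a gene was called at a 2-fold ratio. A few barcodes carried transcripts of other cell types. In RSPO3-OE 1 dividing cell held 340 UMIs of tumour and stromal markers, against at most 4 in any other, and in Ctrl 1 dividing cell held 24 UMIs of macrophage markers. Among 0-UMI cells 1 RSPO3-OE barcode held 52 macrophage UMIs and 2 Ctrl barcodes held 224 and 22 tumour or stromal UMIs. Results that rest on these barcodes are given with and without them.

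The dividing cells formed a long upper tail. In RSPO3-OE the 79 dividing cells held a median of 18.0 UMIs of Mki67 and Top2a with a highest value of 61, and in Ctrl the 36 dividing cells held a median of 12.5 with a highest value of 53. Below the threshold, 168 RSPO3-OE and 87 Ctrl cells had none, and 80 and 38 had 1 or 2. Cells sat on both sides of the border. Exactly 3 UMIs were found in 4 RSPO3-OE and 6 Ctrl cells, whose S phase genes made up a median of 0.307% and 0.373% of all UMIs. Exactly 2 UMIs were found in 17 and 11 cells, with S phase shares of 0.176% and 0.158%. Between 3 and 9 UMIs lay 25 RSPO3-OE and 16 Ctrl cells. In the histogram of Mki67 and Top2a UMIs the bars from 10 on cover wider bins, so their height does not show a separate group.

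**Figure D1:**
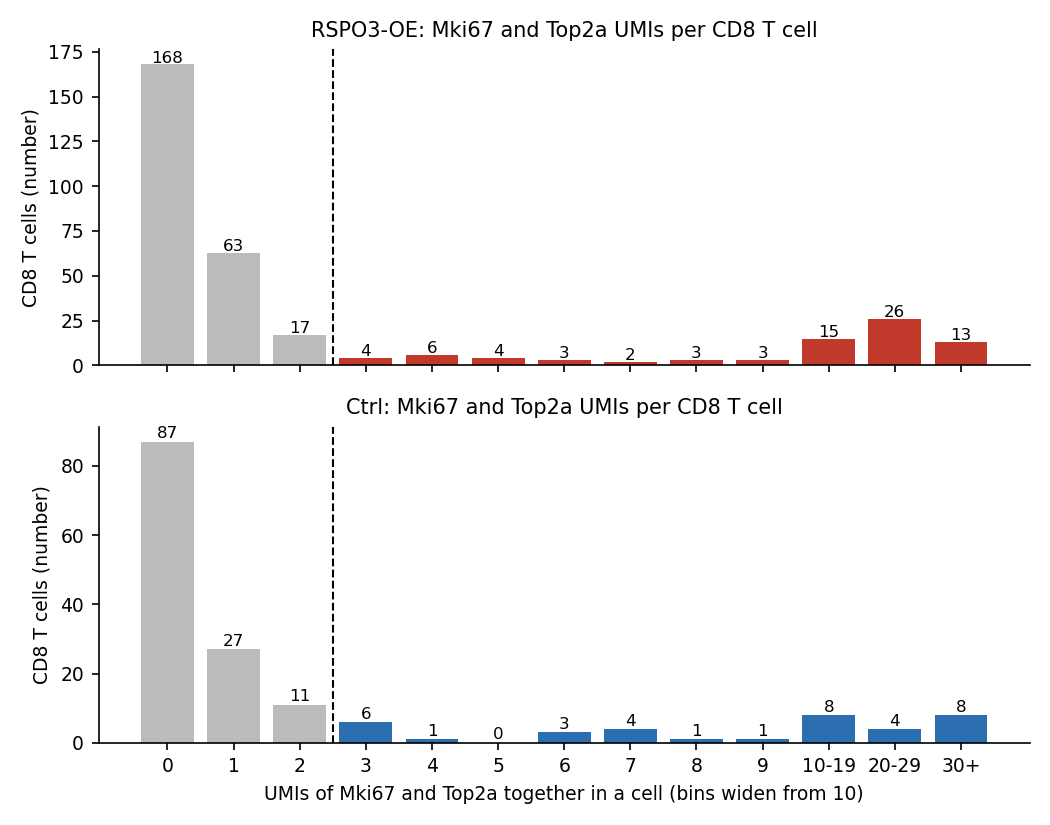
Number of CD8 T cells (vertical axis) by their UMIs of Mki67 and Top2a together (horizontal axis, single values up to 9 and wider bins from 10), for the RSPO3-OE library above and the Ctrl library below; the dashed line marks the threshold of 3 UMIs. In RSPO3-OE 54 of 79 dividing cells and in Ctrl 20 of 36 held 10 UMIs or more.

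The share of CD8 T cells that were dividing differed between the tumours by less than its counting error. It was 24.2% in RSPO3-OE (79 of 327, exact Clopper-Pearson interval 19.6 to 29.2%) and 22.4% in Ctrl (36 of 161, 16.2 to 29.6%). The intervals overlapped over most of their length. When every cell was thinned to 2000 UMIs, leaving out 3 RSPO3-OE cells and no Ctrl cell, 31.2% (26.2 to 36.5%) and 31.1% (24.0 to 38.8%) had at least 1 UMI of either gene. Without all CD8 T cell barcodes that carried other cells' markers, those with 1 or 2 UMIs of Mki67 and Top2a included, the shares were 24% (78 of 325) and 22.4% (35 of 156).

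Other cells of these tumours divided too. Gates without CD3 UMIs took barcodes with at least 10 UMIs of C1qa, C1qb and C1qc as macrophages, at least 2 UMIs of Hmga2 and none of Ptprc as tumour cells, and at least 20 UMIs of S100a8 and S100a9 and 2 of Retnlg as neutrophils. By the same threshold of 3 UMIs, 16.7% of barcodes in the macrophage gate (191 of 1144) and 57.4% in the tumour cell gate (2093 of 3649) were dividing in RSPO3-OE, and 20.6% and 59.1% in Ctrl. Barcodes of the tumour cell gate were deep, with medians of 26914 UMIs (RSPO3-OE) and 23512 UMIs (Ctrl), and a deeper barcode reaches 3 UMIs more readily. Thinned to 2000 UMIs, with at least 1 UMI of either gene, the macrophage share was 16.5% and 19.8%, below the CD8 T cell share in both libraries. The tumour cell share at that depth was 45.0% for RSPO3-OE and 46.7% for Ctrl. It was above the CD8 T cell shares of 31.2% and 31.1%, by less than at the cut of 3 UMIs. Neutrophils, which have left the cell cycle, gave the background. None of 43 RSPO3-OE and none of 11 Ctrl neutrophils had a UMI of Mki67 or Top2a, which at a floor of 3 counts allows shares of up to 6.98% and 27.3% (Clopper-Pearson upper limits 8.22% and 28.5%). Their median depth was 1656 and 1559 UMIs, against 7045 and 7087 in CD8 T cells.

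Dividing cells were also the larger transcriptomes. Their median was 12323 UMIs in RSPO3-OE (range 2712 to 41190) and 10956 in Ctrl (3712 to 28631), against 6017 and 6337 in 0-UMI cells. They expressed a median of 3107 and 2975 genes, against 1888 and 1903. The mitochondrial share hardly differed, at 2.75% and 2.78% in dividing and 2.65% and 2.84% in 0-UMI cells. A deeper cell reaches 3 UMIs more readily, so depth and division cannot be told apart cell by cell, and sums are compared as CPM.

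The rule itself required UMIs of CD3 and CD8 genes, so these describe the cells and are no check of the label. Cd8a stood at 665 CPM in dividing and 860.0 CPM in 0-UMI cells of RSPO3-OE, and at 732 and 909 CPM in Ctrl. Cd3e, a signalling chain of the receptor complex, stood at 605 and 775 CPM in RSPO3-OE and 583 and 769 CPM in Ctrl. T cell genes that the rule did not use were present as well. Trac, the constant region of the receptor's alpha chain, stood at 586 and 581 CPM in RSPO3-OE and 679 and 847 CPM in Ctrl. Lck, the kinase that starts the receptor's signal, stood at 276 and 309 CPM in RSPO3-OE and 312 and 378 CPM in Ctrl. Several markers of other cells were low, but not every list of such markers was. The macrophage gene C1qa reached 17.5 CPM in dividing cells of RSPO3-OE and 12 CPM in those of Ctrl, 0.264% and 0.171% of its macrophage level. Neutrophil markers summed to 0.971 CPM and to 0. Cd4 gave 2 UMIs in RSPO3-OE and 0 in Ctrl, and the NK cell receptor gene Ncr1 gave none in either library.

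Within single cells the S phase and the G2 and M phase genes were both far above the 0-UMI cells. Genes of the S phase list, which copy DNA and supply nucleotides, took a median of 0.483% of a dividing cell's UMIs in RSPO3-OE and 0.57% in Ctrl, while 0-UMI cells had 0.0933% and 0.113%. Genes of the G2 and M phase list, Mki67 and Top2a not counted, took 0.807% and 0.846%, against 0.0847% and 0.0829%. Replication-dependent histones took 0.232% and 0.323%, against 0.0158% and 0.0361%. The rule chose cells by Mki67 and Top2a, whose transcripts build up from S phase to mitosis, so the order of these lists is no independent finding. The G2 and M genes separated the states most. In RSPO3-OE 62 of 79 dividing cells and in Ctrl 27 of 36 lay above every 0-UMI cell for them, while 37 and 12 did so for the S phase genes. No 0-UMI cell reached the dividing cells' median G2 and M share, and 1 in each library reached their median S share.

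**Figure D2:**
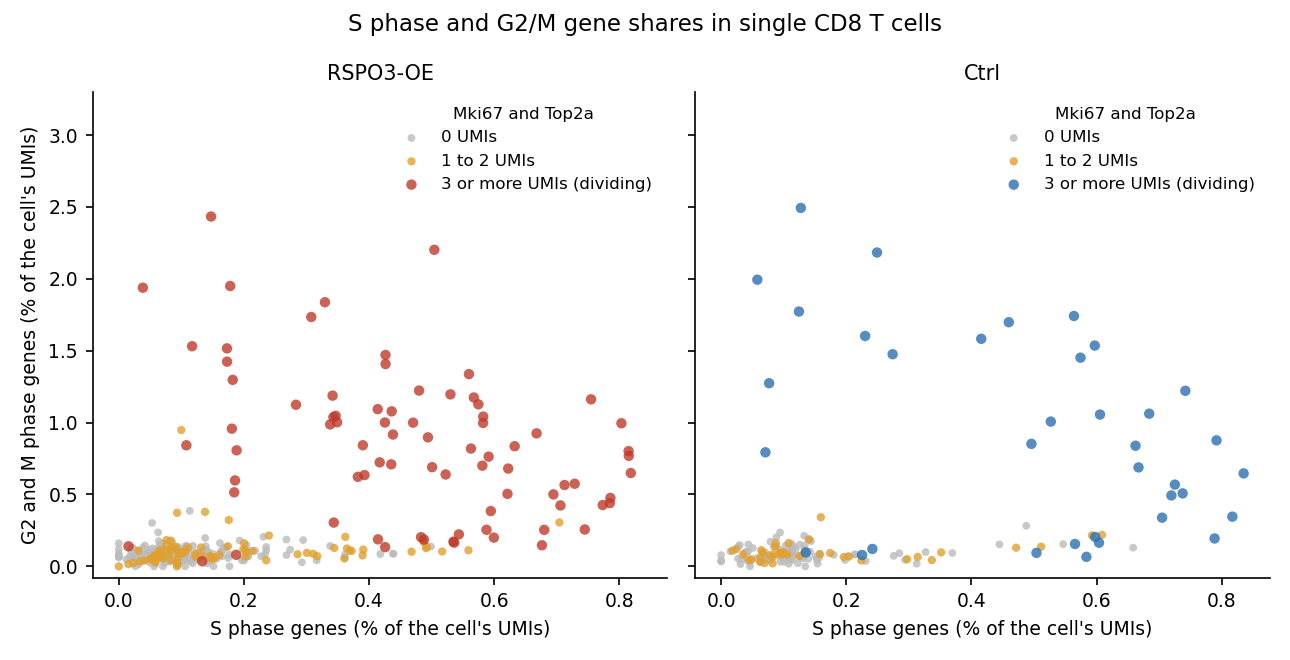
Each point is 1 CD8 T cell, with the share of its UMIs from S phase genes (horizontal axis, %) and from G2 and M phase genes other than Mki67 and Top2a (vertical axis, %), RSPO3-OE on the left and Ctrl on the right, coloured by UMIs of Mki67 and Top2a. Dividing cells spread along both axes, 27 of 79 and 15 of 36 with more S than G2 and M UMIs, while 0-UMI cells lie low on the vertical axis.

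The dividing cells were not uniform. In 27 RSPO3-OE and 15 Ctrl cells S phase UMIs outnumbered G2 and M UMIs, and in the other 52 and 21 the reverse held. Splitting on these lists fixes the direction of their own members, so the genes described here, apart from the lists, are a description of this split. Stmn1, which destabilises microtubules, stood at 918 CPM in the S-weighted and 1331 CPM in the G2 and M-weighted cells of RSPO3-OE, and at 569.9 and 1462 CPM in Ctrl. Hmgb2, a chromatin protein that bends DNA, stood at 1313 and 2975 CPM in RSPO3-OE and 1158 and 3139 CPM in Ctrl. Histone transcripts, although made in S phase, were higher on the G2 and M side in both libraries. For Hist1h1b, a linker histone, the values were 333 and 862 CPM in RSPO3-OE and 353 and 1223 CPM in Ctrl, a log2 ratio of S-weighted over G2 and M-weighted cells of -1.37 (-1.68 to -1.08) and -1.79 (-2.23 to -1.38). For Hist1h2ap, a core histone H2A, the ratios were -1.37 (-1.76 to -1.01) and -1.80 (-2.23 to -1.40). The split only compares the 2 sums, so a G2 and M-weighted cell can still have a high S phase share. As an example, 1 such RSPO3-OE cell had 0.803% of its UMIs from S phase genes, above the dividing cells' median of 0.483%.

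Genes of T cell effector function differed across this split too, some of them in opposite directions in the 2 libraries. Gzmc was lower in S-weighted cells of both, with log2 ratios of -2.31 (-2.85 to -1.81) and -2.75 (-3.39 to -2.17), and most of its UMIs in dividing cells came from 1 cell in each library. Gzme had 1.60 in RSPO3-OE and -1.84 in Ctrl. Ifng had 0.59 (0.22 to 0.97) and -1.98 (-2.70 to -1.32). In Ctrl 1 dividing cell held 60.2% of the Gzme UMIs and 1 held 75.5% of the Ifng UMIs. The split was not repeated without these cells. Gzmb was higher in S-weighted cells of RSPO3-OE, at 1194 against 735 CPM, and level in Ctrl, at 1487 against 1415 CPM. Prf1, the pore-forming perforin, was higher in S-weighted cells of both libraries, with log2 ratios of 0.63 (0.41 to 0.85) and 0.50 (0.18 to 0.81). Cd8a showed no difference outside counting error, at 0.10 (-0.14 to 0.33) and -0.25 (-0.60 to 0.10). Cdkn2d, which inhibits the G1 kinases, was higher in the G2 and M-weighted cells, at 116 against 12.4 CPM in RSPO3-OE and 145 against 18.6 CPM in Ctrl. These genes were picked after their values had been seen.

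Cells with 1 or 2 UMIs, which the rule leaves out of both states, stood between them for Stmn1 and nearer to the 0-UMI cells. Stmn1 was at 63.0 CPM in 0-UMI cells, 183 CPM at 1 to 2 UMIs, 721 CPM at 3 to 9 and 1376 CPM at 10 or more in RSPO3-OE. In Ctrl the same steps were 69.1, 242, 516 and 1479 CPM. The replication gene Mcm3, a subunit of the helicase that opens DNA, peaked earlier along these steps. Its values were 53, 123, 241 and 163 CPM in RSPO3-OE and 84.7, 104, 344 and 231 CPM in Ctrl, highest at 3 to 9 UMIs in both. Ccl5, a chemokine of effector and memory CD8 T cells, went the other way. It was at 4668, 4043, 1485 and 1308 CPM in RSPO3-OE and at 3412, 3448, 796 and 1363 CPM in Ctrl. Its step down lay between cells with 1 to 2 and cells with 3 to 9 UMIs in both libraries.

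Set against 0-UMI cells, dividing cells were higher for the machinery of mitosis, DNA replication, histones and nucleotide synthesis, and lower for a shorter set that included Ccl5. In RSPO3-OE 381 of 4617 measured genes (8.25%) were at least 2-fold higher and 82 (1.78%) at least 2-fold lower, and in Ctrl 207 of 2563 (8.08%) and 33 (1.29%). Measured in both libraries were 2556 genes, of which 138 (5.40%) were higher and 7 (0.274%) lower in both. The median over all measured genes was 0.09 on the log2 scale in each library. Counts of list members below are read beside these shares, and a gene measured only because dividing cells express it had to come out higher.

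Mitosis genes stood apart most, in cells that the rule chose by Mki67 and Top2a. Of 60 genes on the G2 and M list 48 were measured in RSPO3-OE and 47 of them were at least 2-fold higher, with a median log2 ratio of 4.67. In Ctrl 29 were measured and all 29 were higher, with a median of 4.89. Cenpf, a kinetochore protein, stood at 285 CPM in dividing and 1.83 CPM in 0-UMI cells of RSPO3-OE, and at 391 and 3.46 CPM in Ctrl. Its log2 ratios were 7.29 (5.42 to 10.34) and 6.82 (4.95 to 9.88), with wide intervals since 0-UMI cells held 2 UMIs in each library. Birc5, which encodes survivin of the chromosomal passenger complex, stood at 408 and 6.39 CPM in RSPO3-OE and 377 and 5.18 CPM in Ctrl. Dividing and 0-UMI cells were far apart for both genes. Birc5 was seen in 87.3% of dividing RSPO3-OE cells and 66.7% of dividing Ctrl cells, against 2.38% and 3.45% of 0-UMI cells. With every cell thinned to 2000 UMIs these shares were 49.4% and 36.1% of dividing and 1.20% and 1.15% of 0-UMI cells.

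Spindle and chromosome genes followed. Tpx2, which nucleates spindle microtubules, had log2 ratios of 6.66 (4.79 to 9.71) and 6.70 (4.18 to 12.03). Nusap1, which bundles spindle microtubules, had 6.90 (5.03 to 9.95) and 5.95 (4.05 to 9.02). Hmmr, a spindle pole protein, had 5.23 (3.65 to 7.53) and 6.09 (3.54 to 11.42). Among regulators, Ccna2, the cyclin of S and G2 phase, stood at 173 and 1.83 CPM in RSPO3-OE, while in Ctrl it stood at 202 CPM in dividing cells and had no UMI in 0-UMI cells. Against a floor of 3 UMIs over those 0-UMI cells its Ctrl ratio was at least 5.28 on the log2 scale. Ube2c, the ubiquitin-conjugating enzyme of the anaphase-promoting complex, stood at 489 and 17.3 CPM in RSPO3-OE and 617 and 10.4 CPM in Ctrl. Cdca3, Cdca8 and Knl1, which act in mitotic entry, the passenger complex and the kinetochore, had log2 ratios between 5.04 and 6.44. Cdk1, the kinase that drives mitosis, was at 191 and 11.9 CPM in RSPO3-OE and 221 and 15.6 CPM in Ctrl. Smaller ratios were found for G2 and M genes that 0-UMI cells also express, such as the centromeric histone Cenpa, at 1.49 and 1.71, and the condensin subunit Smc4, at 1.74 and 1.72.

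Replication genes were higher by less. Of 43 S phase genes 34 were measured in RSPO3-OE and 33 were at least 2-fold higher (median log2 ratio 2.10), and in Ctrl 21 of 22 were (median 1.79). Rrm2, the regulated subunit of ribonucleotide reductase, stood highest, at 163 and 1.83 CPM in RSPO3-OE and 187 and 3.46 CPM in Ctrl. Clspn, a checkpoint mediator at replication forks, had log2 ratios of 4.25 (3.16 to 5.59) and 3.47 (2.41 to 4.75). Pcna, the sliding clamp of DNA polymerase, was already present in 0-UMI cells, at 124 and 100.2 CPM, and at 304 and 274 CPM in dividing cells. The helicase subunits Mcm3, Mcm6 and Mcm7 had log2 ratios of 1.79, 1.30 and 2.12 in RSPO3-OE and 1.69, 1.25 and 3.02 in Ctrl. The measured exception in Ctrl was Rpa2, a single-strand DNA binding protein, at -0.20 (-0.74 to 0.32). Pclaf, which binds Pcna at forks, was seen in 96.2% and 91.7% of dividing cells against 5.36% and 6.90% of 0-UMI cells. Thinned to 2000 UMIs the shares were 70.9% and 58.3% against 3.01% and 1.15%.

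Enzymes that make nucleotides were higher as well. On the nucleotide synthesis list 12 of 18 measured genes in RSPO3-OE and 7 of 11 in Ctrl were at least 2-fold higher, with medians of 1.57 and 1.62. The thymidylate enzymes Tyms and Tk1 had log2 ratios of 3.40 and 3.86 in RSPO3-OE and 2.67 and 3.35 in Ctrl. The folate enzyme Mthfd2 of the mitochondrion had 1.63 (1.18 to 2.10) and 2.24 (1.44 to 3.12). Nme2, a nucleoside diphosphate kinase, did not differ beyond counting error, at 0.10 (-0.05 to 0.25) and 0.13 (-0.09 to 0.36).

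Chromatin and microtubule genes were among the more abundant of the cell cycle genes. On the chromatin list 20 of 21 measured genes in RSPO3-OE and 20 of 20 in Ctrl were at least 2-fold higher (medians 1.99 and 1.80). Hmgb2 stood at 2456 CPM in dividing and 359 CPM in 0-UMI cells of RSPO3-OE, and at 2371 and 366 CPM in Ctrl. Tubb5, a beta tubulin, stood at 2039.8 and 203 CPM in RSPO3-OE and 1927 and 194 CPM in Ctrl. Stmn1 stood at 1202 and 63.0 CPM in RSPO3-OE and 1116 and 69.1 CPM in Ctrl. Each of the 3 genes was far higher in dividing cells of both libraries. Thinned to 2000 UMIs, Stmn1 was seen in 83.5% and 80.6% of dividing and 7.23% and 9.20% of 0-UMI cells. Histones made for replication were higher in 12 of 12 measured genes in RSPO3-OE and 7 of 8 in Ctrl. Hist1h2ap stood at 462 and 4.56 CPM in RSPO3-OE and 907 and 12.1 CPM in Ctrl. These histone messages mostly lack a poly(A) tail, which the 3′ capture uses, and near-identical copies share reads, so their levels are uncertain.

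Cyclins and inhibitors of the G1 stage behaved differently from the mitotic genes. On the list of cyclins, kinases and inhibitors 9 of 18 measured genes were at least 2-fold higher in RSPO3-OE and 5 of 12 in Ctrl. Ccnd2 and Ccnd3, the D cyclins that link growth signals to the cycle, had log2 ratios of -0.61 (-0.92 to -0.30) and -0.30 (-0.65 to 0.05) in RSPO3-OE and of -0.22 (-0.68 to 0.23) and -0.42 (-0.99 to 0.12) in Ctrl. Cdk6, a D cyclin partner, was lower too, at -0.45 (-0.70 to -0.21) and -0.41 (-0.74 to -0.10), while its relative Cdk4 was higher, at 0.97 (0.58 to 1.36) and 0.74 (0.17 to 1.32). The inhibitors Cdkn2a and Cdkn2d were higher in dividing cells, with Cdkn2d at 83.5 and 27.4 CPM in RSPO3-OE and 96.0 and 38.0 CPM in Ctrl. Cdkn1b, the quiescence inhibitor p27, was lower in RSPO3-OE at -0.69 (-1.10 to -0.29) and not separable in Ctrl at 0.12 (-0.51 to 0.75).

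**Figure D3:**
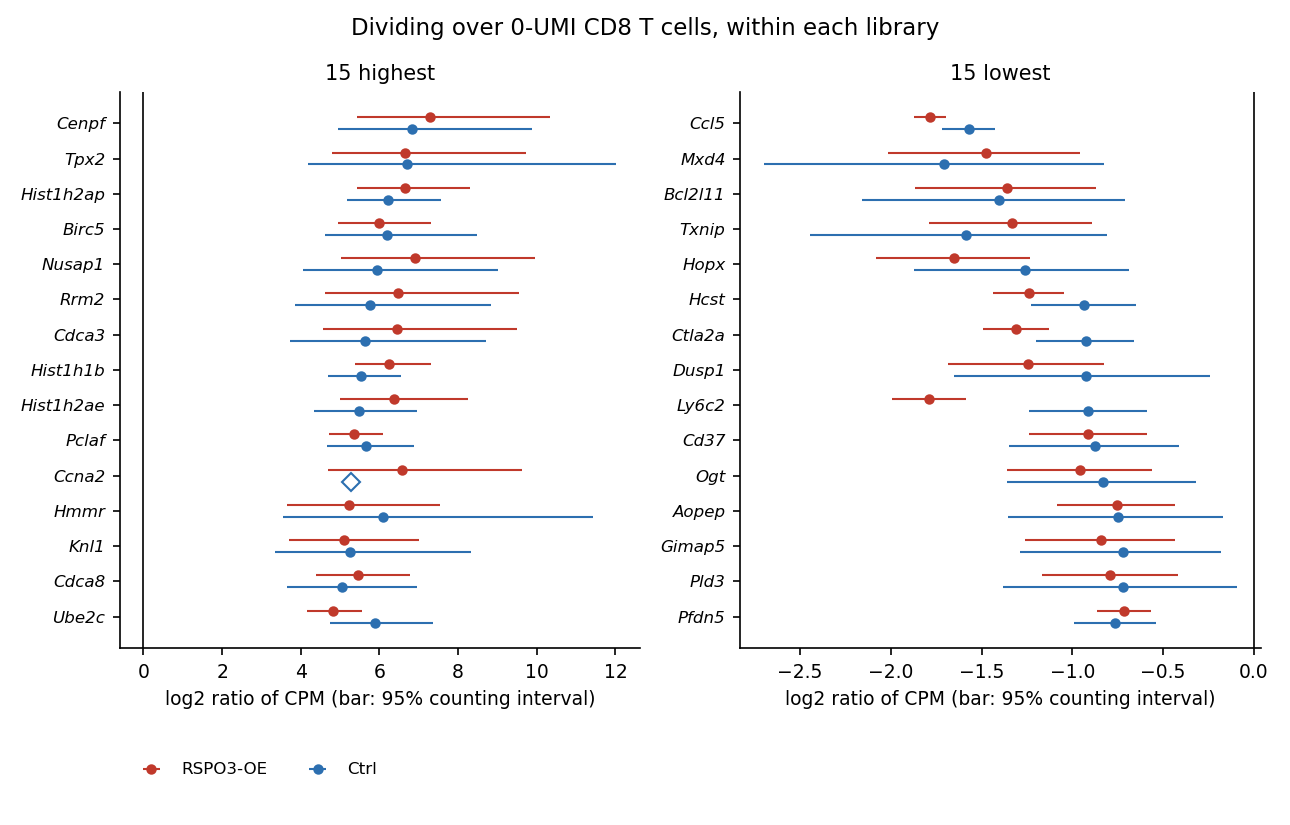
Log2 ratio of CPM in dividing over 0-UMI CD8 T cells (horizontal axis) for the 15 genes at each end of the ranking, RSPO3-OE in red and Ctrl in blue; points are ratios, bars exact 95% counting intervals, and an open diamond without a bar is a bound, for a group without a UMI set to the floor of 3. In RSPO3-OE the highest genes lie between 4.82 and 7.29 and the lowest between -1.79 and -0.71 on this scale.

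The promoters of these genes are shown because the 2 waves of cell cycle expression are known for different promoter elements. The cell cycle homology region (CHR) was searched as the word TTTGAA and also as the word TTCGAA, and it is known from promoters of G2 and M genes, as is the CCAAT box, searched under that word. E2F sites, known from S phase genes, were searched as the word TTCCCGC, the word TTCGCGC and also the word TTGGCGC. Both strands were searched in RefSeq windows of GRCm38.p6 from 250 bases before to 50 after the start. A CHR word was found in 78.43% of 51 windows of G2 and M genes (47 of 60 genes matched) and in 20% of 35 windows of S phase genes (31 of 43 matched), against 19.23% of all 32851 windows. An E2F word was found in 60.0% of the S phase and 19.61% of the G2 and M windows, against 8.07% of all, and CCAAT in 65.71% and 76.47%, against 37.41%. The words were searched independently, so 1 word may overlap another. Below are the stretches from 150 bases before to 30 after the start of 2 G2 and M genes, with CHR and CCAAT words in capitals. Those of 2 S phase genes follow, with E2F words in capitals. These genes were chosen among those whose stretch holds a CHR or an E2F word, so its presence was fixed beforehand. The stretches come from RefSeq on GRCm38.p6, at chr1:189688057-189688236 on the minus strand for Cenpf, chr2:164769779-164769958 on the plus strand for Ube2c, chr7:102441545-102441724 on the plus strand for Rrm1 and chr5:138171854-138172033 on the minus strand for Mcm7. A match is a description of the letters and no evidence of binding.
Cenpf: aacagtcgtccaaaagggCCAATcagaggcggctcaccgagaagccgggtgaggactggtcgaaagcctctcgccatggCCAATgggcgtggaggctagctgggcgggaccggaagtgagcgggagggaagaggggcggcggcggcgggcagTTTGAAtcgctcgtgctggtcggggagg
Ube2c: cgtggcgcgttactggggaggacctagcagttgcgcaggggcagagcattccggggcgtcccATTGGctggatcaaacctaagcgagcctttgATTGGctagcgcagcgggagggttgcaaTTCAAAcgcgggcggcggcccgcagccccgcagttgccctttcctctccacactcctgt
Rrm1: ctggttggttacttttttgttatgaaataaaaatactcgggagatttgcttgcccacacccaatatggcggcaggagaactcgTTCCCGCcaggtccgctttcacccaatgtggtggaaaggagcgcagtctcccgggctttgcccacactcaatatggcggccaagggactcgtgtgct
Mcm7: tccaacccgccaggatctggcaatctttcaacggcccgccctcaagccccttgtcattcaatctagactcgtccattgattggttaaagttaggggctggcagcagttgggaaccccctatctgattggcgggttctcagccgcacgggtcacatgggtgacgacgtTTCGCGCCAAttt

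Ccl5, Ly6c2 and Hopx were among the genes lower in dividing cells. Ccl5 stood at 1355 CPM in dividing and 4668 CPM in 0-UMI cells of RSPO3-OE, and at 1149.7 and 3412 CPM in Ctrl. Its log2 ratios were -1.78 (-1.87 to -1.70) and -1.57 (-1.72 to -1.42). A Ccl5 UMI was found in 91.1% of dividing and 92.3% of 0-UMI cells in RSPO3-OE and in 80.6% and 86.2% in Ctrl. Thinned to 2000 UMIs the shares were 68.4% and 85.5% in RSPO3-OE and 66.7% and 77.0% in Ctrl. Ly6c2, a surface protein of effector and memory cells, stood at 245 and 844 CPM in RSPO3-OE and 266 and 501 CPM in Ctrl. A single Ctrl cell held 56.8% of the dividing Ly6c2 UMIs there. Hopx, a cofactor of differentiated T cells, stood at 60.2 and 189 CPM in RSPO3-OE and 79.2 and 190.1 CPM in Ctrl.

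Mxd4, Txnip and Bcl2l11 were among the 15 lowest genes. Mxd4, a Max partner that opposes Myc, had log2 ratios of -1.47 (-2.01 to -0.96) and -1.71 (-2.70 to -0.83). Txnip, which restrains glucose uptake, had -1.33 (-1.79 to -0.89) and -1.59 (-2.45 to -0.81). Bcl2l11, the death-promoting protein Bim, had -1.36 (-1.87 to -0.87) and -1.41 (-2.16 to -0.71). Each of these was about equally low in both libraries. Bcl2, which Bim binds, was lower as well, at -1.07 (-1.35 to -0.79) and -0.48 (-0.74 to -0.22). Hcst, the adaptor DAP10, and Ctla2a, a protease inhibitor, had log2 ratios of -1.24 and -1.31 in RSPO3-OE and -0.94 and -0.93 in Ctrl. The phosphatase gene Dusp1, the tetraspanin Cd37, the GTPase Gimap5 and the other genes of the lowest 15 (Ogt, Aopep, Pld3 and Pfdn5) lay between -1.25 and -0.71.

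Receptor and signalling genes of T cells were a little lower. None of the 22 genes on the receptor list reached 2-fold in either library, but the median was -0.36 in RSPO3-OE and -0.32 in Ctrl, against 0.09 over all genes, and 14 and 10 intervals lay wholly below 0. Cd3g stood at 1512 and 2206 CPM in RSPO3-OE and 1289 and 1921 CPM in Ctrl. Cd27, a costimulatory receptor of less differentiated cells, had -0.63 (-0.94 to -0.34) and -0.94 (-1.54 to -0.36). Thy1 was the member with an interval above 0 in Ctrl, at 0.40 (0.11 to 0.68), and stood at -0.10 (-0.29 to 0.08) in RSPO3-OE. The part of the larger cell cycle share of all UMIs in this shift was not tested.

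Genes of killing differed between dividing and 0-UMI cells in both directions. Of 16 measured in RSPO3-OE counting intervals lay below 0 for 8 and above 0 for 3, with a median of -0.30, and of 14 in Ctrl 3 lay below and 7 above, with a median of 0.26. Nkg7, a granule protein, stood at 2152 and 2850.2 CPM in RSPO3-OE and 2184 and 2884 CPM in Ctrl. Gzmb stood at 879 and 1111 CPM in RSPO3-OE and, the other way round, at 1442 and 864 CPM in Ctrl. At least 2-fold higher in dividing cells were 2 of the 16 genes in RSPO3-OE and 4 of the 14 in Ctrl. These were granzymes for which 1 cell held a large share of the UMIs. In RSPO3-OE 1 dividing cell, also marked by Scrublet as a doublet, held all 416 UMIs of Gzmg. The cell with the most Gzmc held 79.6% of its UMIs, and 1 cell held 57.2% of Gzmf. Without the highest cell of each state, RSPO3-OE dividing cells had 84.7 against 83.3 CPM of Gzmc and 233 against 214 CPM of Gzme. They were lower for Gzmd, at 322 against 393 CPM, Gzmf, at 1022 against 1697 CPM, and Gzmg, at 0 against 20.4 CPM. In Ctrl 1 cell held 90.4% of Gzmc and 1 held 53.7% of Gzmf. Without the highest cell of each state the Ctrl levels were still higher in dividing cells, but rested on few cells. They were 74.7 against 8.71 CPM for Gzmc and 275.8 against 33.3 CPM for Gzmd. For Gzme they were 95.4 against 8.79 CPM and for Gzmf 879.9 against 321.6 CPM. Of the 36 dividing Ctrl cells, with the highest included, 5 had a UMI of Gzmc, 4 of Gzmd, 5 of Gzme and 11 of Gzmf. Ifng in Ctrl was likewise set by 1 cell, with 75.5% of its UMIs, and its log2 ratio of 1.11 became -0.71 without the highest cell of each state.

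No gene of the inhibitory receptor list reached 2-fold, of 17 measured in RSPO3-OE and 13 in Ctrl, with medians of -0.40 and -0.03. Pdcd1, which encodes PD-1, stood at 254 and 394 CPM in RSPO3-OE and 187 and 247 CPM in Ctrl. Havcr2, which encodes TIM-3, stood at 97.1 and 99.5 CPM in RSPO3-OE and 93.6 and 55.3 CPM in Ctrl. Tox, a regulator of exhaustion, had log2 ratios of -0.06 (-0.33 to 0.20) and -0.21 (-0.56 to 0.14). Transcripts of PD-1, TIM-3 and Tox were thus within 2-fold of the 0-UMI cells.

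Genes of memory and progenitor cells were scarce in both states. Of 20 on the list 8 were measured in RSPO3-OE, with 1 at least 2-fold higher and 3 lower, and 5 in Ctrl, with none at 2-fold. The medians were -0.51 and -0.49, and counting intervals lay below 0 for 4 of the 8 genes and for 2 of the 5. All genes of the list summed to 737 CPM in dividing and 1568 CPM in 0-UMI cells of RSPO3-OE, and to 1039 and 1522 CPM in Ctrl. Il7r, the receptor for the survival cytokine IL-7, stood at 94.2 and 83.1 CPM in RSPO3-OE and 33.6 and 50.1 CPM in Ctrl. Klf2, a quiescence factor that drives exit from tissue, stood at 68.0 and 63.9 CPM in RSPO3-OE and 43.2 and 72.6 CPM in Ctrl. Neither Il7r nor Klf2 was lower in dividing cells of RSPO3-OE, so the lower sum there lay in other genes of the list. Of 22 Wnt receptors, feedback genes and targets, which R-spondin signals would engage, only 2 were measured in RSPO3-OE and 3 in Ctrl, and none of these reached 2-fold.

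Metabolic genes were within 2-fold of the 0-UMI cells. On the glycolysis list no gene of 18 in RSPO3-OE or 12 in Ctrl reached 2-fold, with medians of 0.45 and 0.18. Ldha, lactate dehydrogenase, stood at 1138 and 718 CPM in RSPO3-OE and 905 and 615 CPM in Ctrl, outside counting error in both. Nuclear genes of oxidative phosphorylation had medians of 0.28 and 0.03, with none of 29 at 2-fold, and mitochondrial transcripts 0.02 and -0.11. Type I interferon genes had medians of -0.55 in RSPO3-OE, with 11 of 18 intervals below 0, and -0.10 in Ctrl, with 1 of 13. The plot of each list's genes shows the 5 cell cycle lists to the right and the T cell lists around 0.

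**Figure D4:**
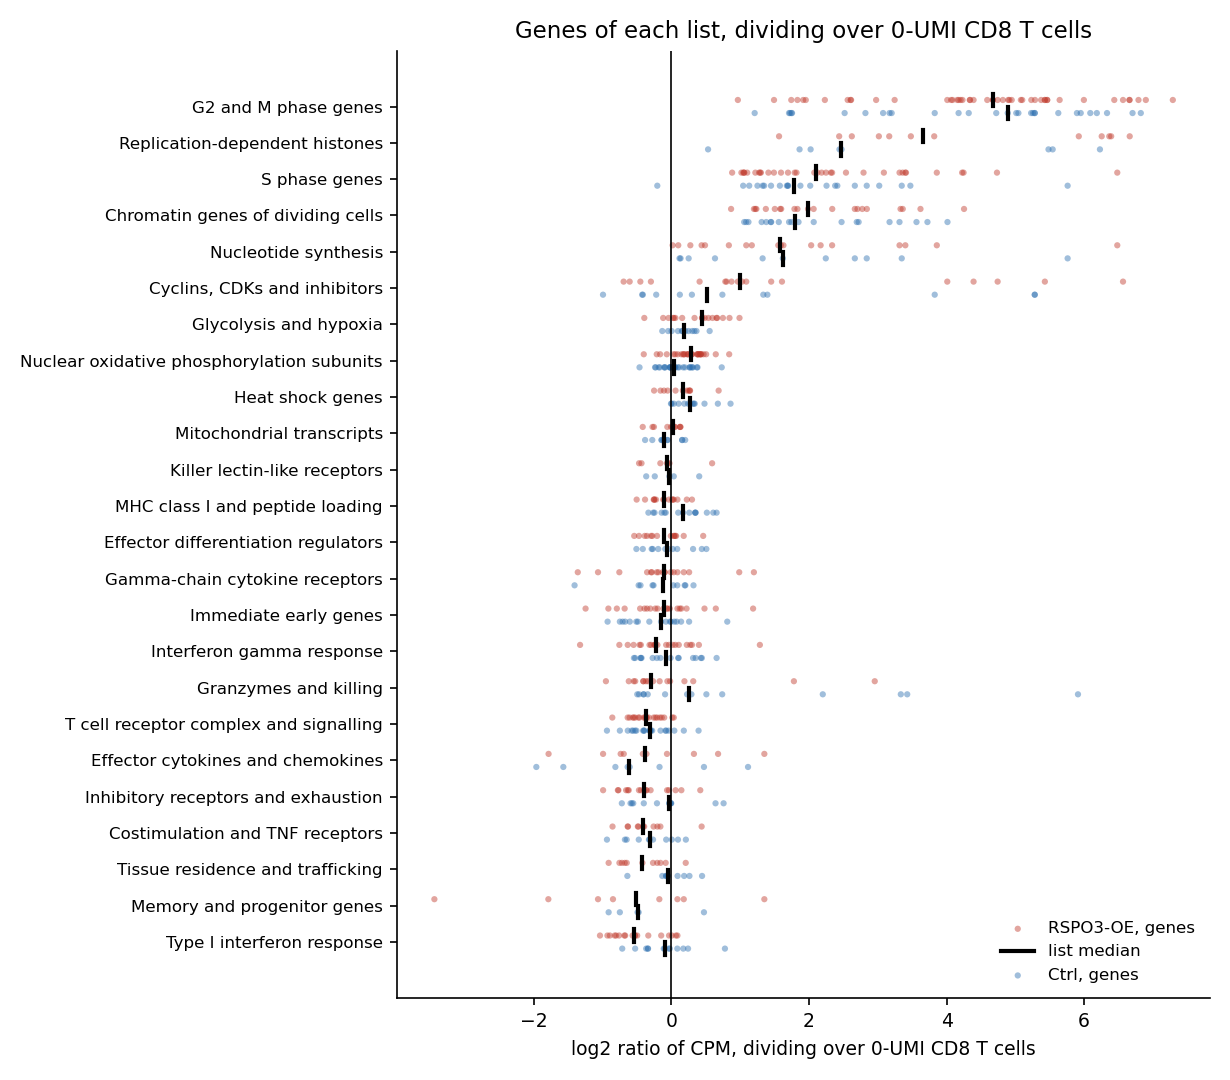
Log2 ratio of CPM in dividing over 0-UMI CD8 T cells (horizontal axis) for each measured gene of each list (1 point per gene), RSPO3-OE in red and Ctrl in blue, with the list median as a black bar. Lists of G2 and M, histone, S phase, chromatin and nucleotide genes have medians above 1.5 in both libraries, and the T cell lists have medians between -0.62 and 0.26.

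The share of dividing cells among CD8 T cells with a UMI of a given gene changed with the depth at which the gene was read. In RSPO3-OE 32.0% of CD8 T cells with a Havcr2 UMI were dividing (48 of 150) against 17.5% without (31 of 177), and 30.8% against 18.3% in Ctrl. With Havcr2 read in cells thinned to 2000 UMIs, the shares were 32.8% and 22.6% in RSPO3-OE and 19% and 22.9% in Ctrl, with overlapping intervals. For Ly6c2, 13.8% of thinned RSPO3-OE cells with a UMI were dividing (8.63 to 20.5%) against 33.0% without (26.1 to 40.4%), and 19% against 23.5% in Ctrl. As deposited the Ly6c2 intervals overlapped, with 22.1% (16.5 to 28.5%) against 27.3% (19.8 to 35.9%) in RSPO3-OE and 22.2% against 22.4% in Ctrl. Cells with Tcf7, which marks stem-like exhausted cells, were too few, with 0 of 5 and 0 of 3 dividing. As deposited, cells with a late granzyme UMI (Gzmd, Gzme, Gzmf or Gzmg) were dividing in 27.9% of cases in RSPO3-OE and 22.4% in Ctrl, and cells without in 21.5% and 22.3%. With the granzymes read in thinned cells, the shares were 25.9% and 22.9% with a UMI and 23.6% and 22.2% without.

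Between the libraries, dividing CD8 T cells of the RSPO3-OE tumour had more transcript of genes such as Nr4a3, Nr4a1, Tnfrsf4 and Cdkn1a, and less of the heat shock genes Hspa1a and Hspa1b, Fcer1g, Cd69 and Bcl2. For each of these genes the 0-UMI cells differed in the same direction. Of 3664 measured genes 110 (3.00%) were at least 2-fold higher and 28 (0.764%) at least 2-fold lower in RSPO3-OE, beside 3.50% and 1.04% of 3743 genes in 0-UMI cells. Without the barcodes that carried other cells' markers the counts were 85 and 27. With 1 library each, the genotype of the tumour and any other difference between these preparations cannot be told apart.

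**Figure D5:**
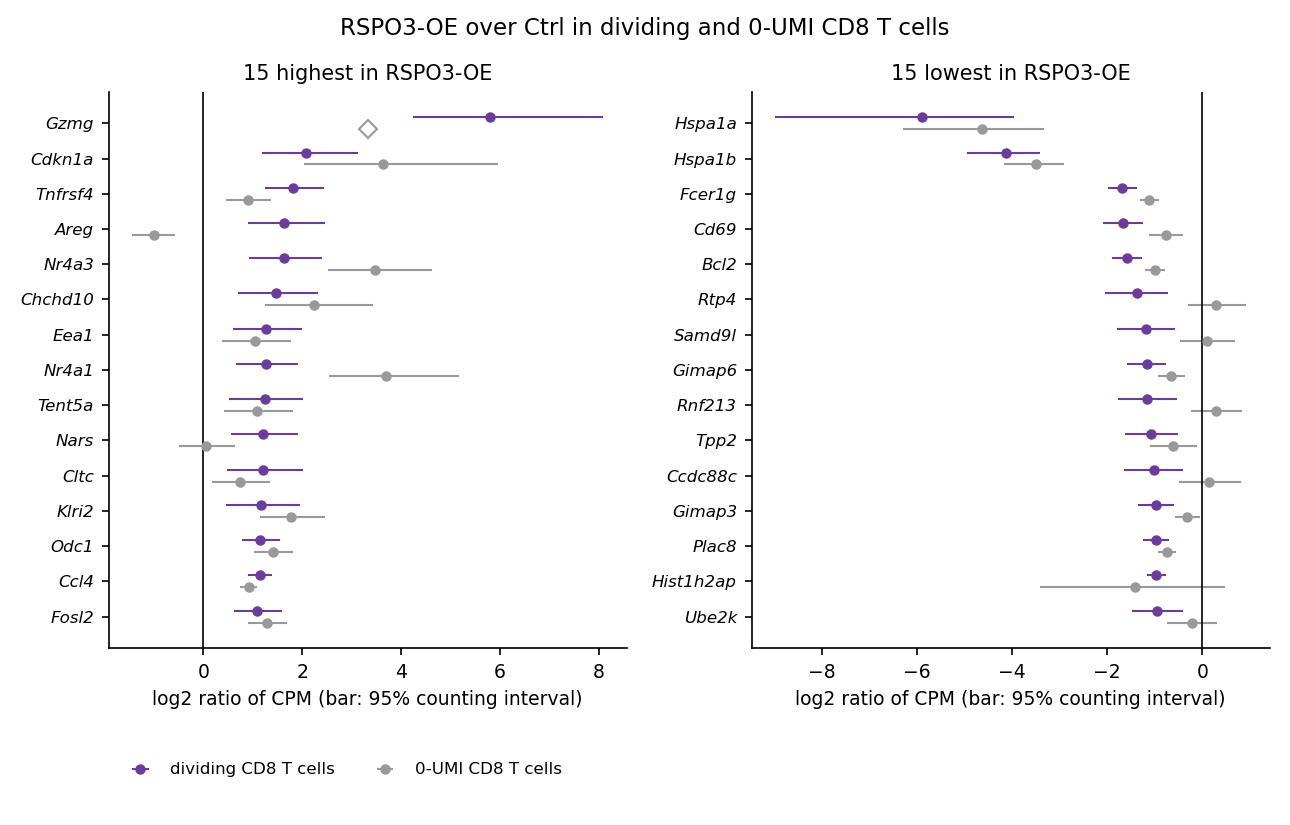
Log2 ratio of CPM in RSPO3-OE over Ctrl (horizontal axis) for the 15 genes at each end of the ranking in dividing CD8 T cells, with dividing cells in purple and 0-UMI cells in grey; bars are exact 95% counting intervals and an open diamond without a bar is a bound, for a group without a UMI set to the floor of 3. Most genes lie on the same side of 0 in both states, while Areg, Rtp4, Samd9l, Rnf213 and Ccdc88c do not.

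Genes higher in RSPO3-OE included a pair of nuclear receptors and a costimulatory receptor. Nr4a3, a nuclear receptor induced by T cell receptor signals, stood at 141 CPM in dividing cells of RSPO3-OE and 45.6 CPM in those of Ctrl, and at 173 and 15.6 CPM in 0-UMI cells. Its relative Nr4a1 stood at 149.5 and 62.4 CPM in dividing and 135 and 10.4 CPM in 0-UMI cells. For both the Ctrl library was low, and lowest in its 0-UMI cells. The log2 ratio of the libraries in dividing cells minus that in 0-UMI cells was -2.44 for Nr4a1 (-3.76 to -1.12) and -1.85 for Nr4a3 (-3.04 to -0.67), a smaller gap in dividing cells. Tnfrsf4, the costimulatory receptor OX40, stood at 238 and 67.2 CPM in dividing and 175 and 93.3 CPM in 0-UMI cells. For Tnfrsf4 the same difference was 0.91 (0.20 to 1.63), a larger gap in dividing cells. Since Tnfrsf4 was named for a high ratio in dividing cells, the choice itself favours such a gap, which the interval does not allow for.

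Cdkn1a, the p53-inducible inhibitor p21, stood at 112 CPM in dividing cells of RSPO3-OE and 26.4 CPM in those of Ctrl, and at 64.8 and 5.18 CPM in 0-UMI cells. It was seen in 50.6% of dividing RSPO3-OE and 19.4% of dividing Ctrl cells, and after thinning to 2000 UMIs in 12.7% and in none of 36. Odc1, which starts polyamine synthesis, had log2 ratios of 1.16 (0.78 to 1.55) in dividing and 1.41 (1.03 to 1.81) in 0-UMI cells. The chemokine Ccl4 had 1.14 (0.90 to 1.39) and 0.92 (0.75 to 1.09), and the AP-1 member Fosl2 1.09 (0.63 to 1.58) and 1.29 (0.90 to 1.70). Nars, an asparaginyl-tRNA synthetase, was higher in dividing cells at 1.22 (0.57 to 1.92) and level in 0-UMI cells at 0.06 (-0.50 to 0.64). The endosomal gene Eea1, the clathrin chain Cltc, the mitochondrial Chchd10, Tent5a and the killer lectin-like gene Klri2 lay between 1.17 and 1.48 in dividing cells. Gzmg headed the ratios at 5.81 (4.25 to 8.09), but all its RSPO3-OE UMIs came from the single doublet-marked cell, and without marked doublets its ratio was -1.21. Areg, an epidermal growth factor ligand, rested on few cells too, since 1 cell held 47.3% of its dividing UMIs in RSPO3-OE and 1 held 76.5% in Ctrl.

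A pair of heat shock genes was the lowest in RSPO3-OE. Hspa1a, an inducible chaperone, stood at 1.94 CPM in dividing cells of RSPO3-OE and 115 CPM in those of Ctrl, and at 4.56 and 112 CPM in 0-UMI cells. Hspa1b, its near-identical copy that can share reads with it, stood at 17.5 and 307 CPM and at 23.7 and 269.6 CPM. Both states of Ctrl were high and both of RSPO3-OE low. The other measured heat shock genes stayed within 2-fold, including Hsp90aa1 at -0.49 (-0.69 to -0.28) and the constitutive Hspa8 at -0.29 (-0.41 to -0.17). Immediate early genes, which also answer to tissue dissociation, differed in both directions, more of them higher in RSPO3-OE. In dividing cells counting intervals lay above 0 for 9 of the 20 measured and below 0 for 2, with 3 at least 2-fold higher, 1 lower and a median of 0.31. Jun had log2 ratios of -1.80 in dividing and -2.23 in 0-UMI cells, and Nfkbia 1.68 and 1.64. Their part in the other library differences was not tested.

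Fcer1g, a signalling adaptor shared by NK and innate-like T cells, stood at 164 CPM in dividing cells of RSPO3-OE and 526 CPM in those of Ctrl, and at 375 and 812 CPM in 0-UMI cells. The NK cell marker list, which holds Fcer1g, summed to 202 CPM in dividing cells of RSPO3-OE and 631 CPM in those of Ctrl, and to 448 and 919 CPM in 0-UMI cells, with Ncr1 at 0 throughout. The gamma-delta T cell list summed to 127 and 384 CPM in dividing and 157 and 342 CPM in 0-UMI cells. Most of the dividing cells' sum was Tcrg-C2, a gamma chain constant region, at 117 and 329 CPM in dividing cells, while the delta constant region Trdc had 1 UMI in RSPO3-OE and none in Ctrl. Trac, the alpha chain constant region, stood at 586 and 679 CPM. The part of other lymphocytes in these differences was not tested.

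Cd69 and Bcl2 were among the genes lower in RSPO3-OE. Cd69, an early activation and tissue retention protein, stood at 81.6 CPM in dividing cells of RSPO3-OE and 259 CPM in those of Ctrl and at 128 and 216 CPM in 0-UMI cells. Its log2 ratio in dividing minus that in 0-UMI cells was -0.91 (-1.45 to -0.37), a larger gap in dividing cells. Of the 9 measured genes of the tissue residence and trafficking list 1 was at least 2-fold lower, with a median of -0.14 in dividing and 0.20 in 0-UMI cells. Bcl2 stood at 150.5 and 451 CPM in dividing and 315 and 627 CPM in 0-UMI cells, and the same difference for it was -0.59 (-0.96 to -0.22). Both Cd69 and Bcl2 were named for a low ratio in dividing cells, which itself favours a larger gap there. The intervals do not allow for this choice. The GTPases Gimap6 and Gimap3, which act in lymphocyte survival, had log2 ratios of -1.17 (-1.59 to -0.75) and -0.98 (-1.36 to -0.60) in dividing cells. Plac8, a gene of effector and memory lymphocytes, had -0.98 in dividing and -0.74 in 0-UMI cells. Tpp2, a cytosolic peptidase, had -1.07, and the ubiquitin-conjugating enzyme Ube2k -0.95.

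A few interferon-induced genes differed between the libraries in dividing cells alone or more than in 0-UMI cells. Rtp4 was lower in RSPO3-OE dividing cells, at 38.8 against 101 CPM, but not in 0-UMI cells, at 72.1 against 58.7 CPM. Samd9l stood at 48.5 and 110.4 CPM in dividing and 73.9 and 69.1 CPM in 0-UMI cells. Rnf213 stood at 48.5 and 108 CPM in dividing and 93.1 and 76.0 CPM in 0-UMI cells. For these 3 genes the library difference in dividing cells minus that in 0-UMI cells was -1.67 (-2.52 to -0.82), -1.28 (-2.08 to -0.49) and -1.45 (-2.22 to -0.67). They were named for a low ratio in dividing cells, a choice that itself favours a value below 0. The counting intervals do not allow for it, so these values are a description. The type I interferon list as a whole was mixed, with 1 of 15 measured genes at least 2-fold higher and 2 lower in dividing cells (median -0.22) and 1 of 16 higher in 0-UMI cells (median 0.22). Ccdc88c, a Wnt and actin regulator, was low in the same way, at -1.03 (-1.64 to -0.40) in dividing and 0.15 (-0.49 to 0.81) in 0-UMI cells.

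The cell cycle genes themselves were at like levels in dividing cells of both libraries. None of 35 S phase, 54 G2 and M phase, 12 histone, 21 chromatin or 18 nucleotide synthesis genes measured differed 2-fold, and the medians were -0.12, -0.20, -0.13, 0.04 and 0.00. Counting intervals lay below 0 for 12 of the 54 G2 and M genes and 5 of the 12 histones. Cenpf had a log2 ratio of -0.45 (-0.74 to -0.17) and Ube2c -0.33 (-0.55 to -0.11). Hist1h2ap, among the 15 lowest of all genes, had -0.97 (-1.17 to -0.77). Stmn1, at 0.11 (-0.05 to 0.26), and Pclaf, at 0.03 (-0.17 to 0.23), did not differ beyond counting error. Inhibitory receptor and exhaustion genes had a median of 0.21, with 3 of 17 at least 2-fold higher and 1 lower in RSPO3-OE. The higher ones were Nr4a1, Nr4a3 and the transcription factor Batf, at 1.71 (0.71 to 2.90), and the lower one was Vsir, which encodes the checkpoint protein VISTA, at -1.08 (-1.83 to -0.33). Costimulatory genes had a median of 0.58, with Tnfrsf4 and Icos, at 1.02 (0.49 to 1.58), the 2 of 10 at least 2-fold higher. The list of CD4 and regulatory T cell markers, which holds Tnfrsf4, moved with these genes. It summed to 793 CPM in dividing cells of RSPO3-OE and 389 CPM in those of Ctrl, and to 755 and 451 CPM in 0-UMI cells. All 4 of its measured genes had counting intervals above 0 in dividing cells, with a median of 1.25, while the median of 3 in 0-UMI cells was 0.91. Cd4 gave 2 UMIs and 0 in dividing cells, and Foxp3 6 and 0. The part of such cells was not tested.

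Compared with other dividing cells of the same tumours, dividing CD8 T cells shared the core genes at differing levels. Stmn1 stood at 1202 and 1116 CPM in dividing CD8 T cells, 778 and 844 CPM in dividing cells of the macrophage gate and 618 and 515 CPM in those of the tumour gate, RSPO3-OE first. Hmgb2 stood at 2456 and 2371, 1136 and 1534, and 1678 and 1592 CPM. Birc5 stood at 408 and 377, 321 and 391, and 367 and 319.9 CPM. Hist1h2ap stood at 462 and 907, 196 and 530.2, and 166 and 456 CPM. In both libraries Stmn1 and Hmgb2 were higher in the CD8 T cells than in either other gate, while Birc5 was at similar levels in all of them. Every gate used the same cut of 3 UMIs, which a deeper cell reaches at a lower CPM of Mki67 and Top2a. Median depth over all CD8 T cells was 7045 and 7087 UMIs. It was 11741 and 12488 UMIs in the macrophage gate and 26914 and 23512 in the tumour gate. The levels were not compared at equal depth, and the part of depth was not tested.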

How the data were processed

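Transcripts of whole dissociated MC38 tumours were counted in 1 RSPO3-OE and 1 Ctrl library. The deposited values are UMI counts per gene and barcode, which the authors made with Cell Ranger 3.0.1 per the labels' protocols, on mm10 per the submitters' processing notes; barcodes had already been called as cells. Barcodes with at least 200 genes and at most 20% mitochondrial UMIs were kept, and doublets were kept, with those that Scrublet (scanpy 1.11.5, expected rate 0.05) marked left out as an alternative. It marked 2.36% and 1.40% of kept barcodes. Counts were summed per library and state and scaled to CPM with pandas 2.3.3. Log2 ratios have exact conditional binomial intervals, and shares have Clopper-Pearson intervals, both from scipy 1.17.1 and covering counting error only. A sum of 0 was set to 3 counts over the group for a ratio. With 1 library per group no p-value can be given.

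The genes named are the 15 highest and the 15 lowest by ratio in each comparison, with at least 100 CPM on the higher side. For the contrast with 0-UMI cells they were ranked by the less extreme library. For the libraries a gene also needed at least 0.5 times the CPM over all kept barcodes there. Genes without a proper symbol, genes of ribosomal proteins, haemoglobins, T cell receptors, immunoglobulins and mitochondria, and the genes that define the cells were left out. Up to 4 members at each end of each of 36 lists were also named. The few other genes described were chosen after their values were seen. The members and lists were chosen with earlier results of these data known, so none is independent support. Alternatives were other division thresholds, depths, scalings, count minimums and cell filters. Leaving out barcodes with markers of other cells, or the cell with the most UMIs of a gene, was chosen after seeing the data. The ratios and their intervals were tested on simulated counts.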

Additional observations from a re-analysis of the deposited data

Results flagged for a closer look

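The stromal genes Dcn, Col3a1 and Bgn, which encode matrix proteins of fibroblasts, differed between dividing and 0-UMI CD8 T cells in opposite directions in the 2 libraries, and the difference between the libraries was not tested. The log2 ratio of dividing over 0-UMI cells was 3.18 in RSPO3-OE and -3.23 in Ctrl for Dcn. It was 1.43 and -3.60 for Col3a1, and 2.55 and -3.14 for Bgn. In RSPO3-OE 1 dividing barcode held 340 UMIs of tumour and stromal markers, and in Ctrl 1 0-UMI barcode held 224. Without the barcodes that carried other cells' markers the ratios were -0.0656 and 0.0526 for Dcn, -0.83 and -0.32 for Col3a1, and -0.45 and 2.42 for Bgn.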

How the results depend on the processing

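The share of dividing CD8 T cells was 29.4% in RSPO3-OE at a threshold of 2 UMIs and 18.7% in cells without a UMI of C1qa, C1qb, C1qc, Lyz2 or Krt8. The share with at least 1 UMI was 31.2% in RSPO3-OE and 31.1% in Ctrl at 2000 UMIs per cell, and 45.7% and 42.2% at 5000. Counts of genes past 2-fold followed depth and the count minimum. Thinned to 2000 UMIs, 91 genes were higher and 43 lower in dividing cells of RSPO3-OE, 35 and 10 in Ctrl, and 14 and 6 between libraries. With at least 20 UMIs per gene these were 729 and 251, 525 and 181, and 371 and 205, and with at least 200 UMIs 95 and 18, 40 and 1, and 11 and 4. In cells without macrophage or Krt8 UMIs 243 genes were higher in RSPO3-OE and 122 in Ctrl, and 49 and 17 differed between libraries. At a threshold of 5 UMIs 45 genes were lower in RSPO3-OE dividing cells. Each of these counts comes from fewer cells, fewer UMIs or another count minimum.

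Some log2 ratios changed sign. Without marked doublets Gzmg became -4.06 for dividing over 0-UMI cells in RSPO3-OE and -1.21 between libraries, Gzmc -0.45, Dcn -0.0893, Col3a1 -0.78, and Bgn -0.40 in RSPO3-OE and 1.43 in Ctrl. Without the cell with the most UMIs Gzmg became -2.77, Ifng in Ctrl -0.71, Col3a1 -0.75, and Bgn -0.18 and 1.07. In cells without macrophage or Krt8 UMIs Dcn became -0.77, Col3a1 -0.80 in RSPO3-OE and 0.61 in Ctrl, and Bgn -0.99 and 0.93. Without barcodes carrying other cells' markers Dcn became -0.0656 and 0.0526, Col3a1 -0.83, and Bgn -0.45 and 2.42. Thinned to 2000 UMIs Col3a1 became -0.43 in RSPO3-OE and Chchd10 -0.31 in Ctrl. The cause of the Chchd10 change was not tested. Of 248 called values of named genes, 248 kept their sign under median-of-ratios scaling and 244 stayed past 2-fold. Of those still measured, 241 of 243 kept their sign and 209 stayed past 2-fold when thinned, and 240 and 215 of 245 did without macrophage or Krt8 UMIs. No paired analysis was possible because each group had 1 library.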
